A study of Mus musculus with 9 samples.

Results

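The comparison of old with young atrial appendages concerns 6 of the 9 libraries of the study: 3 from young mice of 5 months and 3 from old mice of 18 months. All mice were C57BL/6, and neither of these groups had received curcumin. The remaining 3 libraries came from 18-month-old mice given 100 mg/kg curcumin each day from 12 months of age. They are not compared here, but they entered the filter on low counts, the scaling and the spread of the statistical fit. The members were chosen by the age and treatment labels, with no measured value. The atrial appendage is the pouch at the side of each atrium, and the title of the series ties it to susceptibility to atrial fibrillation in ageing. Small RNAs were read with PANDORA-seq, in which the enzyme AlkB removes methyl groups and a polynucleotide kinase repairs RNA ends before ligation, so that modified fragments are sequenced. RNA of 15 to 45 nucleotides was taken from a gel. The sample titles carry the letters LAA, the usual short form of left atrial appendage, without spelling it out. The series states 3 mice in each group but does not say whether a library held 1 mouse, so p-values measure the spread between these libraries.

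tRNA fragments, called tsRNAs, arise when mature or precursor tRNAs are cut, often in the anticodon loop. Mitochondrial tRNAs lie between the coding genes of long transcripts of the mitochondrial genome. RNase P frees their 5′ end, the nuclease ELAC2 frees their 3′ end, and the letters CCA are then added before an amino acid can be attached. miRNAs are cut from hairpin precursors and repress mRNAs that pair with their seed, bases 2 to 8. In the heart, miR-1 and miR-133 mark muscle cells, miR-126 marks endothelium, and miR-208a is made from an intron of Myh6, a gene for cardiac myosin.

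The labelled tissue fitted its main marker miRNAs in part. miR-1a-2 stood at 8316, 2943 and 4237 CPM, a unit in which feature reads are scaled to a common library depth, in young and 6649, 2483 and 4874 in old libraries. miR-208a stood at 32.6, 23.0 and 23.4 CPM in young and 26.1, 15.8 and 17.1 in old libraries. The cardiac miR-499 had 0, 0 and 2 reads in young and 5, 5 and 0 in old libraries, and miR-208b had 2 reads in 1 young library and none elsewhere, so both were too rare to test. The endothelial miR-126a stood between 4178 and 10451 CPM, and the liver miRNA miR-122 at most at 3.69 CPM. The libraries held 12899427 to 19707803 clean reads, of which 83.7% to 86.4% fell in annotated features. Replicate number divided the libraries in both groups: those numbered 1 had 20.2% and 22.6% of clean reads in nuclear tRNA, against 11.3% to 14.6% in the others, and a genome match of 73.7% and 72.2%, against 65.0% to 67.0%. Results that turn on single libraries are therefore also given without them.

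**Figure D1:**
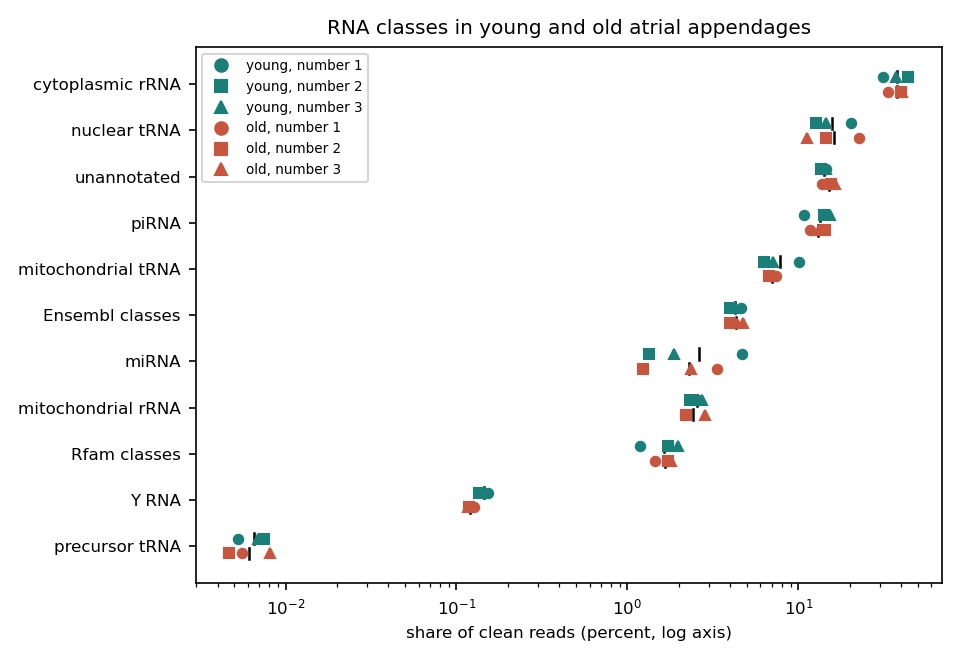
Share of clean reads in each RNA class (horizontal log axis, percent) for the 3 young and 3 old libraries, with black ticks for group means; reads without annotation are shown as a class of their own. The colours overlap in every class except Y RNA, where the old libraries lie at 0.117% to 0.127% and the young at 0.136% to 0.152%.

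The broad makeup of the small RNA pool overlapped between the ages. Fragments of cytoplasmic rRNA, the RNA of ribosomes, took 31.3%, 43.8% and 37.4% of clean reads in young and 33.3%, 39.8% and 40.3% in old libraries. Nuclear tRNA took 20.2%, 12.7% and 14.6% in young and 22.6%, 14.5% and 11.3% in old libraries. Mitochondrial tRNA took 10.0%, 6.28% and 7.13% against 7.37%, 6.69% and 7.03%. In each of these classes the highest and the lowest library were of the same age. miRNAs took 4.66%, 1.34% and 1.88% of clean reads in young and 3.32%, 1.23% and 2.37% in old libraries, with number 1 highest and number 2 lowest in both. Of 32 shares compared, 29 overlapped between the groups and 3 did not: Y RNA and the 5.8S part of rRNA, described below, and the Ensembl class of long intergenic RNA (lincRNA). Each of these 3 had an exact two-sided permutation p of 0.1, the smallest that 3 against 3 libraries can give, and an adjusted p of 1 over the 32 shares. The exact sign-flip test over the 3 numbers gave 0.25, again the smallest possible.

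No single feature passed the test between the ages. Each miRNA precursor, tRNA part, precursor tRNA, rRNA, Y RNA and Ensembl or Rfam class, and piRNA as a whole, counted as 1 feature, and 520 of 994 had enough reads. edgeR's quasi-likelihood test called 0 of 520 (0%) at a Benjamini-Hochberg adjusted p under 0.05, the smallest adjusted p being 0.999. At an unadjusted p under 0.05 there were 5 (0.962%), where 26 would arise by chance alone, and DESeq2 also called 0 with 5 at that level. The median log2 difference, old minus young, was −0.04 over all features, with 285 of 520 lower in old libraries. The median standard error was 0.47 on this scale, 0.50 among miRNAs and 0.38 among mitochondrial tRNA parts, which limits what 3 libraries a group can detect.

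The 3 young and 3 old values did not overlap for 24 of 520 features (4.62%): 12 were lower (2.31%) and 12 higher (2.31%) in old libraries. They were 10 of 209 miRNAs, 5 of 88 mitochondrial tRNA parts, 5 of 185 nuclear tRNA parts, 3 of 14 Ensembl classes and 1 of 2 Y RNAs. The shares among miRNAs (4.78%) and mitochondrial tRNA parts (5.68%) were near that of all features. Differences in the same direction within all 3 numbers were found for 75 features (14.4%) lower and 54 (10.4%) higher. This is a weaker criterion, which every feature with separate groups also meets, so its higher count follows from the criterion itself. The features that follow are given as values and not as changes.

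**Figure D2:**
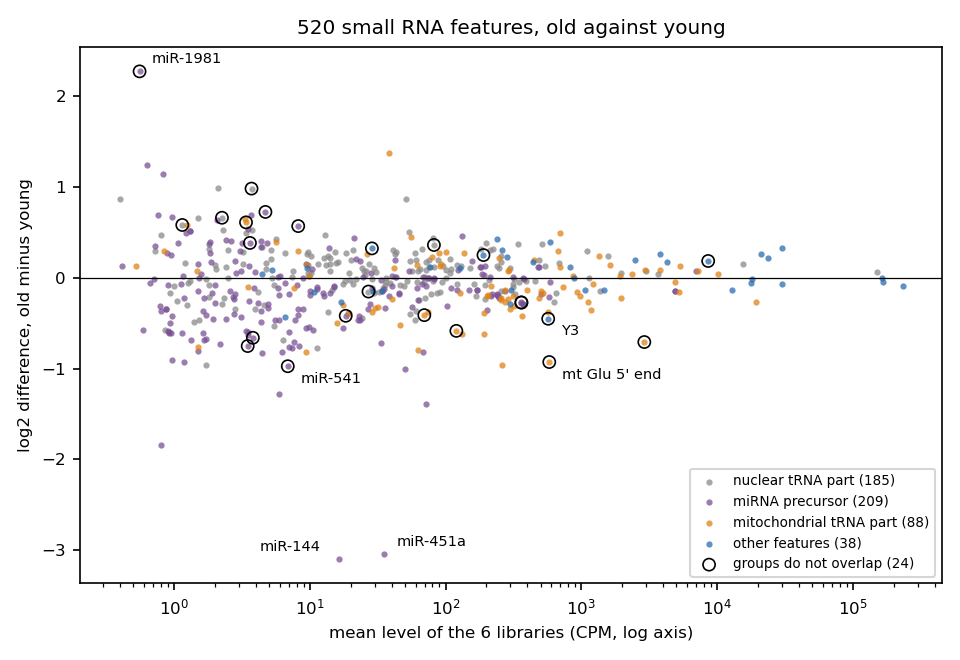
Log2 difference between old and young libraries from edgeR (vertical axis) against the mean level over the 6 libraries (CPM, horizontal log axis) for the 520 features, coloured by class; rings mark the 24 features whose groups do not overlap. miR-144 and miR-451a lie lowest, at −3.10 and −3.05, and are not ringed; most ringed features lie within 1 of the zero line.

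The 5′ ends of mitochondrial tRNAs were the tRNA part with the most one-sided values. The genes of 4 of them, whose 5′ end or share of 5′ ends did not overlap between the ages, are shown here from GENCODE M21 (GRCm38), 5′ to 3′ and without CCA, with the anticodon in capitals. The files do not say at which base a fragment starts or stops.
mt-Te (Glu-TTC): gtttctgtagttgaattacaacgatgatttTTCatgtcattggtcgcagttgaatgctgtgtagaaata
mt-Tr (Arg-TCG): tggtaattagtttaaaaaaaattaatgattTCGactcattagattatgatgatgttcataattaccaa
mt-Ty (Tyr-GTA): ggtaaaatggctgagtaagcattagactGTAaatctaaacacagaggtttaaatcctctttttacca
mt-Tn (Asn-GTT): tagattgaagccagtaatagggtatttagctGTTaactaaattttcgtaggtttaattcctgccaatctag
They lie at chrM:14071-14139 (minus strand), chrM:9808-9875 (plus), chrM:5260-5326 (minus) and chrM:5089-5159 (minus), each a whole tRNA gene of the mitochondrial genome. The anticodon holds bases 31 to 33 of mt-Te and mt-Tr, 29 to 31 of mt-Ty and 32 to 34 of mt-Tn, so that a 5′ fragment ending there would fall inside the selected length.

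Of the 22 mitochondrial 5′ ends, 19 stood lower in old than in young libraries, with a median log2 difference of −0.36 against −0.04 for all features and −0.12 for all 88 mitochondrial parts. The 5′ end of Glu-TTC stood at 839, 894 and 548 CPM in young and 257, 403 and 539 in old libraries. Its highest old library was just below its lowest young library, and the log2 difference was −0.93 (SE 0.32; edgeR adjusted p = 0.999). Arg-TCG 5′ ends stood at 3592, 3913 and 3315 CPM in young and 886 (number 1), 2538 and 3201 in old libraries, a log2 difference of −0.71 (SE 0.40) that was −0.33 without old replicate 1. Here too old replicate 3 lay close to the young libraries, while old replicate 1 lay far below its young counterpart (−2.02 on the log2 scale). Tyr-GTA 5′ ends stood at 165, 159.9 and 107 CPM in young and at 99.6, 95.02 and 93.3 in old libraries, a difference of −0.58 (SE 0.35). The old libraries lay close together here, and all of them below the young ones. Leu-TAA 5′ ends went the other way at a low level, with 2.07, 3.04 and 2.94 CPM in young and 3.49, 3.96 and 4.81 in old libraries (log2 difference 0.61, SE 0.37). Trp-TCA 5′ ends had the lowest fitted value, −0.97 (SE 0.55), but overlapped: 206, 540.2 and 277 CPM against 51.4, 253 and 220.3.

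The size of this pattern depended on old replicate 1. It held the lowest value of the 6 libraries for 14 of the 22 5′ ends. Within the libraries numbered 1 the median log2 difference was −1.29 (19 of 22 lower), within those numbered 2 it was −0.19 (16 lower), and within those numbered 3 it was −0.03 (12 lower). Without old replicate 1, 16 of 22 were lower with a median of −0.13, and without both libraries numbered 1, and the curcumin library of that number, 13 of 22 with a median of −0.11. Lower values within all 3 numbers were found for 9 of the 22, against 75 of all 520 features (14.4%). In the full fit the 14 genes on the plus strand and the 8 on the minus strand had 12 and 7 lower, with medians of −0.36 and −0.30. Without the libraries numbered 1, 7 of 14 were lower on the plus strand (median −0.003) and 6 of 8 on the minus strand (median −0.17). Within number 3 the medians were 0.13 and −0.12, with 6 of 14 and 6 of 8 lower.

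**Figure D3:**
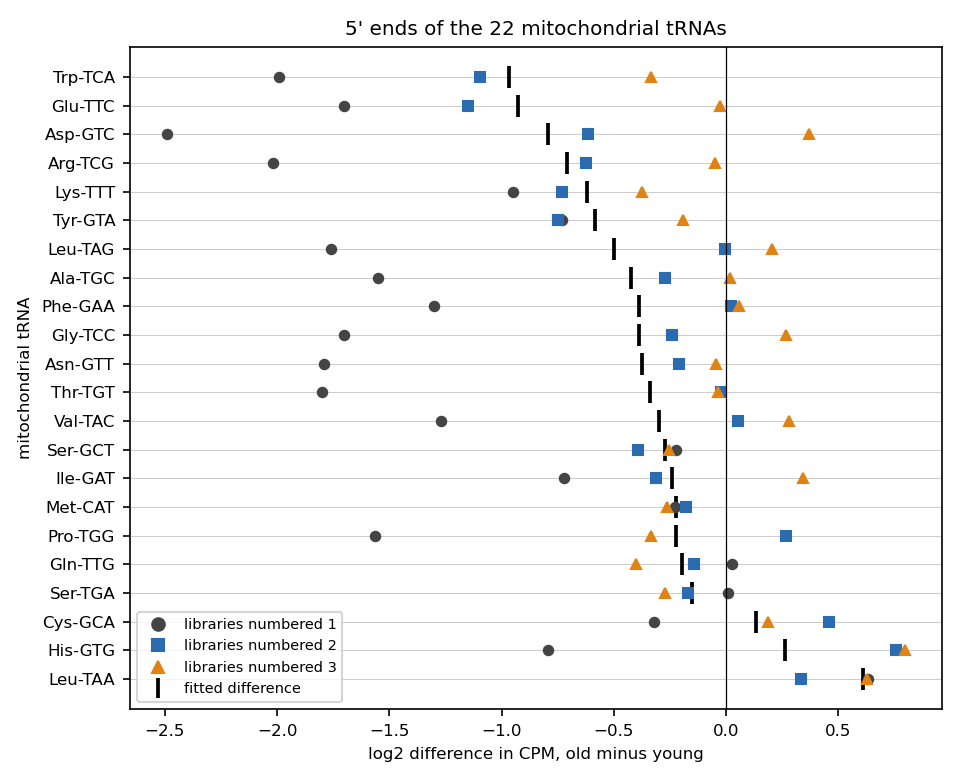
Log2 difference in CPM, old minus young (horizontal axis), for the 5′ end of each of the 22 mitochondrial tRNAs, within the libraries numbered 1, 2 and 3 (symbols) and as fitted by edgeR over all libraries (black ticks). The symbols of number 1 lie furthest to the left for most tRNAs, while those of number 3 lie on both sides of 0.

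Set against the other reads of the same tRNA, the 5′ ends were again mostly lower. The mean 5′ share was lower in old libraries in 20 of 22 mitochondrial tRNAs, with a median difference of −1.53 percentage points, −0.66 (18 of 22) without old replicate 1 and −0.39 (15 of 22) without the libraries numbered 1. For Tyr-GTA the 5′ end made up 39.1%, 42.7% and 39.7% of reads in young and 28.1%, 32.8% and 24.3% in old libraries. The CCA end of this tRNA took the opposite side, with 36.1%, 33.7% and 33.95% against 39.7%, 38.0% and 51.2%. The groups stood apart for both parts, with mean differences of −12.1 and 8.35 points. For Asn-GTT the 5′ end made up 12.0%, 12.3% and 10.8% in young and 3.04%, 8.41% and 9.76% in old libraries, and its other part, which holds the reads not listed as an end, 82.2%, 82.2% and 85.7% against 91.8%, 89.2% and 87.5%. For Arg-TCG it was the other part that separated the ages, with 25.7%, 20.8% and 24.5% against 39.6%, 32.8% and 32.6%. For Thr-TGT the 5′ share was 18.7%, 18.6% and 19.3% in young and 7.77%, 17.6% and 18.5% in old libraries, so that only old replicate 1 lay well below. Among the 22 mitochondrial tRNAs, separate 5′ shares were lower in 3 and higher in 1, Leu-TAA (0.425% to 0.519% against 0.591% to 0.788%). Separate CCA shares were higher in 2, separate other parts higher in 2, and no 3′ share was separate. Of 32 nuclear tRNAs with enough reads, 1 had a separate 5′ share, lower for Ala-CGC, and no other part was separate. Each of these separate groups has an exact permutation p of 0.1, the smallest that 3 against 3 libraries can give, and none passed after adjustment (adjusted p = 1). Among all 520 features 4.62% had separate groups, so a few separate shares among this many are given as values only.

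The other parts of mitochondrial tRNAs had no common side. CCA ends were lower in 12 of 22 (median −0.06), 3′ ends without CCA in 8 of 22 (median 0.12) and other parts in 11 of 22 (median −0.04). The 3′ ends turned with single libraries: 17 of 22 were lower without old replicate 1 (median −0.47) and 2 of 22 without young replicate 1 (median 0.90). The highest value lay in young replicate 1 for 11 and in old replicate 1 for 8 of them. The CCA end of Ser-TGA was the only mitochondrial CCA end whose groups did not overlap, with 77.8, 88.6 and 72.1 CPM in young and 64.1, 52.1 and 63.1 in old libraries (log2 difference −0.41, SE 0.29). The CCA end of Asp-GTC stood at 210.1, 317 and 166 CPM against 126, 148 and 177, a log2 difference of −0.62 (SE 0.31) with overlap in number 3. The 3′ end of Ser-TGA spread from 7.92 to 44.4 CPM in young and from 21.4 to 97.4 in old libraries, and its difference of 1.38 had an SE of 0.74. The 3′ end of Glu-TTC stood at 696, 455 and 598 CPM in young and 1579.6, 452 and 425 in old libraries, with old replicate 1 far above the rest and a difference of 0.49 (SE 0.75). The most read mitochondrial fragment, the 5′ end of Ser-GCT, stood at 31837, 15540 and 15966 CPM in young and 27291, 11842 and 13378 in old libraries. It was lower in old libraries within each number, by 0.22, 0.39 and 0.26 on the log2 scale, but number 1 exceeded numbers 2 and 3 by far more than that in both groups. Over all its parts this tRNA held 35.6%, 18.1% and 18.0% of mitochondrial tRNA reads in young and 34.3%, 13.6% and 16.9% in old libraries. Summed over its parts, Trp-TCA stood at 1462, 1524 and 1062 CPM in young and 956, 946 and 999 in old libraries, with every old library below every young one. The same held for Lys-TTT, at 875 to 1072 CPM against 850.5 to 865, and for Met-CAT, at 886 to 965 against 772 to 838. The totals of all other mitochondrial tRNAs overlapped, and no test was run on the totals.

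Nuclear tRNA fragments were dominated by tRNA-Gly-GCC, a frequent source of tRNA fragments in mouse tissues. It held 84.4%, 75.8% and 78.4% of nuclear tRNA reads in young and 82.9%, 76.1% and 76.4% in old libraries. Its other part stood at 155333, 136688 and 147328 CPM against 208612, 149131 and 100643, so that the old libraries lay on both sides of the young ones (log2 difference 0.06, SE 0.31). Of 185 nuclear parts, 108 stood higher in old libraries, with a median of 0.07. By part, 28 of 48 5′ ends, 18 of 38 3′ ends, 26 of 49 CCA ends and 36 of 50 other parts were higher, with medians of 0.08, −0.00, 0.01 and 0.12. These counts turned with single libraries: 129 of the 185 parts were lower without young replicate 1 and 135 without old replicate 2. CCA ends were lower in 46 of 49 without young replicate 1 and in 1 of 49 without old replicate 1. The lowest CCA value lay in old replicate 1 for 35 and in young replicate 1 for 14 of the 49. Old replicate 2 held the highest value for 41 of the 50 other parts; 39 were lower without it, and 35 were lower without young replicate 1.

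A few nuclear parts separated the ages. Among them, the 5′ end of tRNA-Gly-CCC stood at 66.9, 69.9 and 78.5 CPM in young and at 86.2, 93.8 and 96.6 in old libraries, a log2 difference of 0.36 (SE 0.34), with a similar step of 0.36, 0.42 and 0.30 within the 3 numbers. The 5′ end of the selenocysteine tRNA, SeC-TCA, stood at 27.8, 27.9 and 29.6 CPM against 25.4, 25.1 and 26.3 (log2 difference −0.15, SE 0.31). The 5′ end of Leu-TAA (1.42 to 2.12 CPM against 2.37 to 3.06), the 3′ end of Glu-CTC (1.93 to 3.14 against 3.59 to 7.13) and the 3′ end of Asn-GTT (0.912 to 0.921 against 0.934 to 2.14) did so at low levels. The 5′ end of Asn-GTT had the smallest p among nuclear parts but overlapped, with 7.43, 21.3 and 13.99 CPM against 6.41, 6.82 and 11.8 (log2 difference −0.77, SE 0.46). By amino acid, parts of tRNA-Val were higher in 11 of 12 (median 0.15) and parts of tRNA-Asp in 4 of 4 (median 0.37), while parts of tRNA-Thr were lower in 9 of 12 (median −0.23). Without old replicate 2, 7 of 12 Val parts were lower, and without the libraries numbered 1, 6 of 12 Thr parts. All 4 Asp parts were highest in old replicate 2, and their median was 0.15 without it and 0.16 without young replicate 1. The Val-AAC tRNA summed over its parts stood at 425, 454 and 416 CPM in young and 472, 537 and 477 in old libraries, which did not overlap. The totals of all other nuclear tRNAs overlapped, and these totals were not tested.

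The miRNAs on which the next results turn are shown with the seed in capitals, from RefSeq (GRCm38.p6). The files give reads per precursor, so the 5p and 3p arms cannot be told apart, and loci that give the same mature miRNA do not have independent values. The 4 miR-181 miRNAs share the seed ACAUUCA; miR-1843a-5p and miR-1843b-5p share a run of 20 bases shifted by 1, which gives them different seeds.
mmu-miR-541-5p: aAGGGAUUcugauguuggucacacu
mmu-miR-541-3p: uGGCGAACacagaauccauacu
mmu-miR-181a-5p: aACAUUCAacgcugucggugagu
mmu-miR-181b-5p: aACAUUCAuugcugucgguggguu
mmu-miR-181c-5p: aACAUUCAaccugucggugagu
mmu-miR-181d-5p: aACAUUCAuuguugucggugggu
mmu-let-7c-5p: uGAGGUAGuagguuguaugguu
mmu-miR-208a-3p: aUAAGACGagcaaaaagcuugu
mmu-miR-1843a-5p: uAUGGAGGucucugucugacu
mmu-miR-1843b-5p: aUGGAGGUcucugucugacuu
mmu-miR-144-3p: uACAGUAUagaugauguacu
mmu-miR-451a: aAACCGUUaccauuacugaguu

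Of 209 miRNA precursors, 140 stood lower in old libraries with a median log2 difference of −0.15, and this is the base against which miRNA lists are read. The side was not fixed: young replicate 1 held the highest value for 111 precursors and old replicate 2 the lowest for 106. Without young replicate 1, 77 of 209 were lower with a median of 0.18, and without old replicate 2, 96 of 209 with a median of 0.03. The list of miRNAs linked to atrial fibrillation had 13 of 18 lower (median −0.14) and the senescence list 10 of 11 (−0.09). The miR-30 family had 4 of 6 lower (−0.16) and the inflammation list 3 of 8 (0.08). Without young replicate 1 the medians of these lists were 0.37, 0.38, 0.20 and 0.20.

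The miR-181 family, which tunes T cell receptor signalling and vascular inflammation, stood lower in 6 of 6 precursors, with a median of −0.37. miR-181b-1 (chr1:137966639-137966718, plus strand, in an intron of Gm4258 and an exon of the lincRNA A430106G13Rik) stood at 4.53, 4.79 and 4.66 CPM in young and at 3.63, 2.62 and 2.59 in old libraries (log2 difference −0.66, SE 0.37). miR-181b-2 (chr2:38853830-38853918, plus strand, antisense within an intron of Nr6a1) stood at 3.81, 5.16 and 4.16 CPM against 2.99, 2.77 and 2.01 (−0.75, SE 0.39). Both loci give the same mature miRNA, so these are not independent values, and in both the groups were separate. miR-181a-1 (chr1:137966455-137966541, plus strand), at 16.8, 10.7 and 12.98 CPM against 15.5, 7.37 and 12.3, and miR-181a-2, at 15.1, 14.01 and 15.2 against 16.2, 8.64 and 14.7, overlapped, with differences of −0.20 (SE 0.40) and −0.16 (SE 0.37). miR-181c and miR-181d (chr8:84178873-84178961 and chr8:84178716-84178787, minus strand, in an intron of Nanos3) lay between 0.792 and 3.35 CPM. The family was lower within all 3 numbers in 5 of 6 precursors and without young replicate 1 in 6 of 6 (median −0.37). Without old replicate 2 it was lower in 3 of 6, with a median of −0.03.

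The let-7 family, which shares the seed of let-7c and represses growth genes such as Hmga2, stood lower in 11 of 12 precursors, with a median of −0.20. let-7c-1 (chr16:77599657-77599750, plus strand, in an intron of Mir99ahg) stood at 404, 379 and 402 CPM in young and 364, 343 and 275 in old libraries, a log2 difference of −0.27 (SE 0.23). Its second locus, let-7c-2 (chr15:85706603-85706697, in an exon of Lncppara), had almost the same values. Every old library lay below every young one for let-7c. let-7f-2, the most read member, stood at 966, 389 and 502 CPM against 795, 310 and 498 and overlapped (−0.21, SE 0.41). let-7b stood at 207, 259 and 307 CPM against 211, 282 and 181. Lower values within all 3 numbers were found for 8 of 12 precursors, against 44 of 209 miRNAs, and 8 of 12 were lower without young replicate 1 (median −0.10) and 8 of 12 without old replicate 2 (median −0.055).

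miRNAs of the imprinted Dlk1-Dio3 region, a cluster made from the maternal allele, stood lower in 10 of the 11 that could be tested, of 45 in the files, with a median of −0.60. Their summed level was 65.3, 25.6 and 40.4 CPM in young and 44.9, 20.8 and 19.5 in old libraries. miR-541 (chr12:109742409-109742498, plus strand, in an intron of the lincRNA Mirg) stood at 11.6, 6.63 and 9.12 CPM in young and 4.98, 4.91 and 4.02 in old libraries, a log2 difference of −0.97 (SE 0.43; edgeR unadjusted p = 0.049, adjusted p = 0.999). It was the only member whose groups did not overlap. miR-127 stood at 16.5, 8.48 and 13.1 CPM against 14.03, 5.86 and 5.75 (−0.57, SE 0.47), and miR-379 at 15.4, 3.13 and 6.996 against 9.61, 3.17 and 4.10 (−0.60, SE 0.65). Young replicate 1 was highest of the 6 libraries for 9 of the 11, and without it 7 of 11 were lower with a median of −0.34. The median was −0.35 without old replicate 2 and −0.40 without old replicate 3, with 10 of 11 lower in both. Without the libraries numbered 1, 9 of the 10 that remained testable were lower with a median of −0.67.

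miR-208a (chr14:54949060-54949142, minus strand, in an intron of Myh6) overlapped, but each old library lay below the young library of the same number, by 0.32, 0.53 and 0.44 on the log2 scale (fitted difference −0.42, SE 0.37). The muscle list as a whole had 6 of 6 lower and the same median as all miRNAs, −0.15. It had 2 of 6 lower with a median of 0.14 without old replicate 2, and 4 of 6 with a median of −0.04 without young replicate 1. Its members miR-1a-2 (−0.15, SE 0.44) and miR-133a-2 (206, 146 and 181 CPM against 198, 97.5 and 189) overlapped widely. The endothelial miR-126a had a difference of 0.08 (SE 0.37). Fibrosis-linked miRNAs, among them miR-21a and the collagen-targeting miR-29 family, stood lower in 8 of 9 with a median of −0.01, in 0 of 9 with a median of 0.72 without young replicate 1, and in 1 of 9 with a median of 0.32 without old replicate 2. miR-21a spread from 21.7 to 145 CPM in young and from 13.9 to 109.9 in old libraries, so that each age held both high and low libraries.

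Further miRNAs whose groups did not overlap lay at low or moderate levels. miR-574 stood at 20.8, 20.6 and 21.6 CPM in young and 16.5, 13.6 and 17.1 in old libraries (log2 difference −0.42, SE 0.31), and the young libraries lay close together. miR-1843a (chr12:80391613-80391677, minus strand, in an intron of Dcaf5 and within the small RNA gene Scarna3b) stood at 3.76, 2.21 and 4.66 CPM in young and 5.84, 6.02 and 5.75 in old libraries (0.73, SE 0.41). Its relative miR-1843b (chr1:159340358-159340423, plus strand, in an intron of Cop1) stood at 6.03, 5.90 and 7.91 CPM against 9.61, 11.4 and 8.41 (0.57, SE 0.37). The pair thus stood higher in every old library than in any young one, but their 5p sequences share most of their bases, so the values may rest in part on the same reads. miR-1839 stood at 2.40 to 3.67 CPM in young and 3.72 to 4.67 in old libraries. miR-1981 had the largest positive difference, 2.27 (SE 0.84), at 0.0965, 0.0921 and 0.406 CPM in young and 0.854, 1.03 and 0.862 in old libraries, at the low end of what could be tested. It passed the filter on low counts through the old libraries and 1 curcumin library (1.06 CPM), while no young library reached that level. The filter thus favoured a higher old value for this miRNA, and its separate groups count for little.

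**Figure D4:**
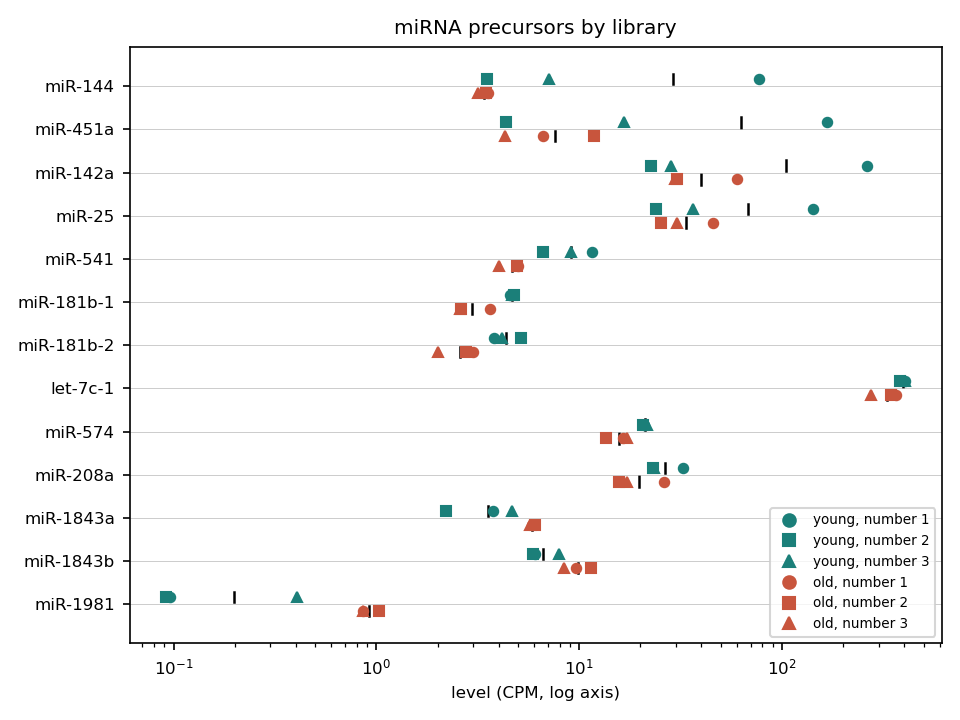
Level of 13 miRNA precursors (CPM, horizontal log axis) in the 3 young and 3 old libraries, with black ticks for group means. For the upper 4 precursors young replicate 1 lies far to the right of all other libraries; for miR-541, miR-181b, let-7c-1, miR-574, miR-1843 and miR-1981 the colours do not overlap.

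The largest differences among all features belonged to blood cell miRNAs and rested mainly on 1 library. miR-144 and miR-451a lie beside each other (chr11:78073005-78073070 and chr11:78073170-78073241, plus strand, in no host gene) and are abundant in red blood cells. miR-144 stood at 76.7, 3.50 and 7.10 CPM in young and 3.56, 3.49 and 3.16 in old libraries, and miR-451a at 167, 4.33 and 16.5 against 6.62, 11.9 and 4.31. Apart from young replicate 1 the groups overlapped, and without it the 4 markers had a median of −0.68 in place of −1.76, with 4 of 4 lower in both. The log2 differences of miR-144 and miR-451a, −3.10 (SE 1.02) and −3.05 (SE 1.14), were then −0.67 and −0.50. miR-486a, also of red blood cells, was highest in young replicate 3 instead, with 18.9, 24.3 and 38.9 CPM against 18.6, 22.03 and 18.8. The leukocyte miRNA miR-142a stood at 263, 22.6 and 28.4 CPM in young and 59.7, 30.2 and 29.7 in old libraries, and its log2 difference of −1.39 (SE 0.83) turned to 0.62 without young replicate 1. The summed level of the 4 red blood cell markers was 281, 55.0 and 99.3 CPM in young and 46.6, 58.5 and 44.0 in old libraries, and that of the 4 leukocyte markers 350.3, 53.0 and 62.8 against 101, 58.4 and 68.0. miR-155, an inflammatory miRNA of leukocytes, stood higher within each number, at 1.45, 3.04 and 3.95 CPM against 3.56, 4.83 and 5.10 (0.69, SE 0.45), with overlap. It was the only 1 of the 4 leukocyte markers, and of the 8 tested members of the inflammation list, to do so. The leukocyte miRNA miR-223 stood at 81.8, 19.9 and 23.8 CPM against 33.1, 17.8 and 25.2 (−0.72, SE 0.55). The difference of miR-150 was 0.02 (SE 0.48).

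The same library was highest for 9 of the 10 tested members of the miR-17-92 list. This list is named for the miR-17-92 cluster, which promotes cell proliferation, and also holds miR-106b, miR-93 and miR-25 of a related cluster. miR-25 stood at 142, 24.0 and 36.5 CPM in young and 45.5, 25.3 and 30.2 in old libraries (−1.01, SE 0.62), and miR-93 at 169, 34.9 and 55.8 against 63.3, 36.4 and 48.0. The group was lower in 9 of 10 with a median of −0.61, and in 0 of 10 with a median of 0.41 without young replicate 1. The summed blood cell markers were highest in that library as well, though single markers differed: it was highest for 2 of 4 red blood cell markers and 2 of 4 leukocyte markers, and lowest for the leukocyte miRNAs miR-150 (3.86 CPM) and miR-155 (1.45 CPM). The part of these markers in the levels of this group, of the Dlk1-Dio3 miRNAs and of miRNAs as a class was not tested. In such bulk libraries fewer cells of a type and less RNA per cell cannot be told apart.

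Y RNAs bind the Ro60 protein, and fragments of them are abundant in blood and dying cells. Mouse Y3 is shown because it was the one of 2 Y RNAs whose groups were separate (chr6:47781624-47781725, GRCm38, plus strand, 102 bases, GENCODE M21).
Rny3: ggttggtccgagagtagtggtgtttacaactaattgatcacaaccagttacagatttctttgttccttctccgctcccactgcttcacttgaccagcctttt
Y3 stood at 539, 764 and 671 CPM in young and 403, 536 and 504 in old libraries, a log2 difference of −0.45 (SE 0.24; edgeR adjusted p = 0.999). Within numbers 1, 2 and 3 the difference was −0.42, −0.51 and −0.41, an even step in each. Y1 stood at 908, 1197 and 1227 CPM against 1055, 1084 and 905 and overlapped. The share of Y RNA in clean reads was 0.152%, 0.136% and 0.145% in young and 0.127%, 0.118% and 0.117% in old libraries, a mean difference of −0.0237 percentage points.

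Among rRNAs, 5.8S, which pairs with 28S in the large ribosomal subunit, was the one whose share separated the ages, at 2.38%, 1.82% and 2.38% of clean reads in young and 2.51%, 2.73% and 2.85% in old libraries. On the CPM scale it stood at 22633, 26290.4 and 31105 in young and 28850.1, 37471 and 34210.5 in old libraries, which overlapped (log2 difference 0.33, SE 0.21). The difference in share was 0.501 percentage points with all reads and 0.00567 with genome-matched reads only (exact permutation p = 0.3). The 28S rRNA took 14.4%, 24.1% and 18.2% of clean reads against 16.3%, 19.4% and 18.6%, and the 18S rRNA 11.2%, 15.0% and 12.92% against 10.98%, 14.1% and 14.1%. These parts of the ribosome overlapped, and so did both mitochondrial rRNAs, with 16S at 2.58%, 2.30% and 2.71% of clean reads against 2.15%, 2.18% and 2.82%. The piRNA class, reads that match sequences of germline piRNAs, took 10.8%, 14.1% and 15.3% against 11.8%, 14.3% and 13.3%.

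Ensembl classes stood higher in old libraries for 11 of 14, with a median of 0.15, and 7 of 14 were higher within all 3 numbers, against 10.4% of all features. Fragments of snoRNA, which guide the modification of rRNA, stood at 7725, 7878 and 8511 CPM in young and 8838, 8997 and 9583 in old libraries. On this scale the steps within the 3 numbers were 0.19, 0.19 and 0.17, with a fitted difference of 0.19 (SE 0.18). As a share of clean reads snoRNA overlapped, at 0.813%, 0.546% and 0.651% against 0.770%, 0.654% and 0.797% (exact permutation p = 0.6), and number 1 was lower in the old library. RNA within introns of other genes (sense intronic) stood at 176, 176 and 169 CPM against 211, 219.7 and 188 (0.25, SE 0.23), and RNA from bidirectional promoters at 24.9, 25.5 and 25.96 against 31.8, 34.2 and 29.5 (0.32, SE 0.30). The lincRNA class took 0.314%, 0.253% and 0.282% of clean reads in young and 0.316%, 0.320% and 0.365% in old libraries, while its CPM, 2982, 3653 and 3685 against 3632, 4395 and 4382, overlapped. Without young replicate 1, 6 of 14 Ensembl classes were lower, with a median of 0.04, and without old replicate 2, 4 of 14 with a median of 0.07. Rfam classes had 5 of 9 lower and a median of −0.00, and no group stood apart. Reads with no annotation took 14.4%, 13.6% and 14.6% of clean reads in young and 13.7%, 15.5% and 16.3% in old libraries.

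**Figure D5:**
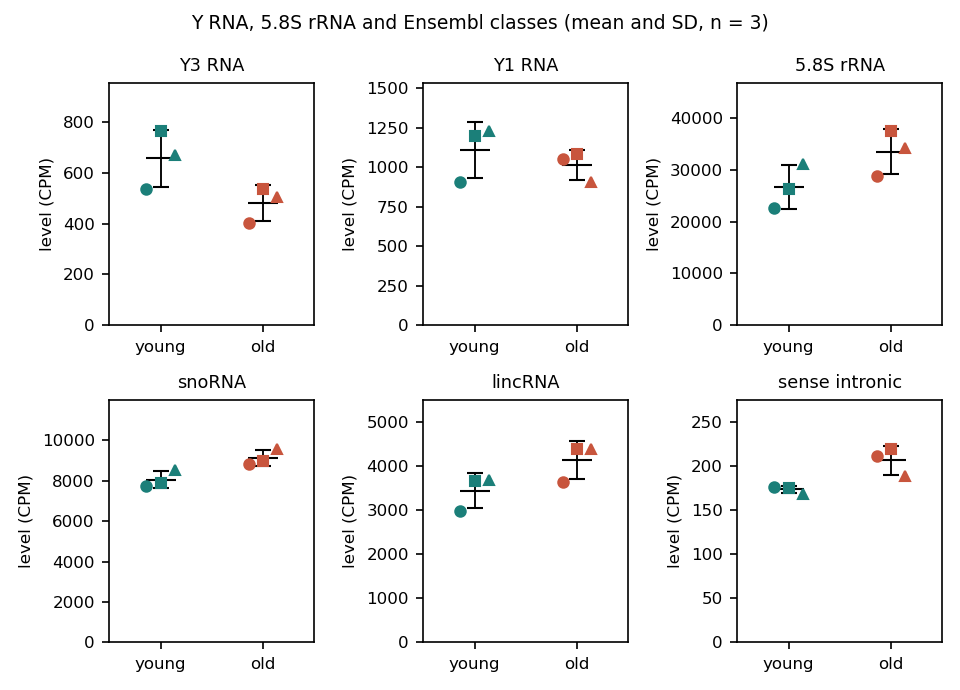
Level (CPM) of Y3 and Y1 RNA, 5.8S rRNA and the Ensembl snoRNA, lincRNA and sense intronic classes in the young and old libraries; circles, squares and triangles are numbers 1, 2 and 3, and bars show the mean and SD of 3 libraries. The groups are separate for Y3, snoRNA and sense intronic RNA and overlap for Y1, 5.8S and lincRNA on this scale.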

How the data were processed

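Per the labels' protocols, RNA treated with AlkB and T4 polynucleotide kinase was sized to 15 to 45 nucleotides, ligated to QIAGEN miRNA kit adapters and read from 1 end over 75 cycles. The submitters' processing notes name cutadapt 2.5 and mm10. Not given in the sources used here are the annotation tool and any use of molecular identifiers. The values the authors deposited are expected counts per annotation, not normalized. Their fractions add up to whole class totals, so reads were divided among annotations, by a rule that no source used here states. Genome-matched and unmatched rows were summed and rounded, and the ends of a tRNA were subtracted from its total to give the other part. All 9 libraries entered a single edgeR 4.0.16 fit (R 4.3.3; robust quasi-likelihood, TMM, filterByExpr), adjusted by Benjamini-Hochberg over 520 features; edgeR CPM use TMM-scaled feature reads, and fold changes are on the log2 scale. The SE is that of the edgeR coefficient. Within-number differences add 0.5 CPM. DESeq2 1.42.0, other scalings, filters and left-out libraries were alternatives. Shares were compared by exact two-sided permutation and sign-flip tests (SciPy 1.17.1). Reads are not independent molecules, and 95% Wilson intervals of the miRNA, cytoplasmic rRNA and nuclear tRNA shares reach at most 0.0264 points to either side, counting error only. Same-numbered young and old libraries deviated together from their group means (correlations 0.81, 0.66 and 0.31 for numbers 1, 2 and 3). By the rule used here numbers pair the libraries, although the labels give no shared animal or day. Numbers 2 and 3 also correlated with each other (0.42 and 0.60), more closely than the libraries numbered 3 did. Pairing by number was therefore not shown for number 3, and within-number differences are descriptive. Named features were drawn from the 20 with the smallest p, up to 3 of the most read per class and up to 2 per list (all members in lists of 4 or fewer). Other features whose groups do not overlap were named after their values were seen. Some features with overlapping groups were also named outside this rule, among them miR-208a, miR-133a-2, let-7b and miR-21a. The members and lists were chosen with earlier results of these data known. The edgeR fit was run on simulated counts, whose recovery is not given here, and the exact tests on short series of values with known answers.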

Additional observations from a re-analysis of the deposited data

How the results depend on the processing

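All 19 other fits called 0 features: other scalings and filters, DESeq2, classes fitted alone, only the young and old libraries, genome-matched reads, and leaving out each library or the 3 numbered 1. A replicate block in edgeR also gave 0 calls and changed no other call. The smallest adjusted p over these fits was 0.247 (each class alone), and the number at an unadjusted p under 0.05 was 20 of 960 without a filter, 17 without the libraries numbered 1, and 4 to 11 with 1 library left out. None of the 24 features whose groups did not overlap changed sign in any fit, but this was largely fixed by how they were chosen. At a given scaling, leaving out a library cannot reverse a difference between groups that are already separate. Share differences, in percentage points, changed sign for 7 of 12 shares. Without the libraries numbered 1 they were 0.184 for miRNA, −0.568 for cytoplasmic rRNA, −0.778 for nuclear tRNA and 0.163 for mitochondrial tRNA, and with genome-matched reads only −0.230 for cytoplasmic rRNA. With 1 library left out they ranged from −0.967 to 0.691 for miRNA, −2.83 to 3.45 for cytoplasmic rRNA, −2.97 to 2.70 for nuclear tRNA, −1.55 to 0.332 for mitochondrial tRNA, −1.60 to 0.637 for piRNA, −3.27 to 1.39 for tRNA-Gly-GCC within nuclear tRNA, and −8.69 to 3.52 for Ser-GCT within mitochondrial tRNA. Log2 differences with 1 library left out ranged from −1.85 to 0.62 for miR-142a, −1.38 to 0.13 for miR-25, −1.23 to 0.13 for miR-379, −0.47 to 0.36 for miR-1a-2, −0.19 to 0.50 for miR-126a, −0.44 to 0.055 for miR-181a-1, −0.33 to 0.077 for miR-181a-2, −0.60 to 0.24 for let-7f-2, −0.75 to 0.13 for the Ser-GCT 5′ end, −0.42 to 0.81 for the Glu-TTC 3′ end and −0.26 to 0.27 for the Gly-GCC other part. Without the libraries numbered 1 they were 0.24 for miR-142a, 0.037 for miR-1a-2, −0.26 for the Glu-TTC 3′ end and −0.18 for the Gly-GCC other part, and with clean-read totals −0.034 for miR-126a. The other 29 of 40 features followed kept their sign in every fit, but many of the 40 were features whose groups do not overlap. Some features given only by their levels were not followed. One of them, miR-93, turned without young replicate 1, where 0 of 10 members of its list were lower. The cause of these turns was not tested beyond the libraries left out. Clean-read totals moved the median of all features to −0.08, and that of mitochondrial 3′ ends to −0.04.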
